A study of Rattus norvegicus with 4 samples.

Results

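The Id genes Id1, Id2, Id3 and Id4 were followed in cultured rat retinal cells through every probe set of the array that carried exactly 1 gene symbol and whose symbol was one of these 4. The array held 31099 probe sets, of which 20826 had 1 symbol and were not array controls, and 8 of those belonged to the family: 1 each for Id1 and Id3, 2 for Id2 and 4 for Id4. Neurospheres, floating clusters grown from dissociated cells, came from embryonic day 18 retina of Sprague Dawley rats, pooled over embryos. In the control group they were grown with epidermal growth factor (EGF), and in the other group with EGF plus endothelial cell conditioned medium, that is, medium in which cells of the blood vessel lining had grown (called conditioned medium here). Each group had 2 arrays, labelled as biological replicates, and all 4 cultures received EGF. The comparison asks what endothelial cell factors add to EGF in retinal progenitor cultures.

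Id proteins are helix-loop-helix proteins without the basic region that contacts DNA. They pair with the E proteins, the common partners of basic helix-loop-helix (bHLH) factors, and the pair cannot bind the E box, the DNA site of bHLH dimers. In neural progenitors this holds back the proneural bHLH factors that start neuronal differentiation, and bone morphogenetic protein (BMP) signals acting through Smad proteins are a well known inducer of Id transcription.

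The 4 promoters are shown because the 4 genes lay on the same side of the comparison and reached very different sizes within it. The windows are RefSeq sequence of the assembly GRCr8, 210 bases each, running 5′ to 3′ on the gene's strand from 250 to 41 bases before the start in that table, which is upstream of every annotated transcript of these genes. Capitals mark the letters CANNTG (E box), CCAAT and TATAA on either strand. In Id1 the matches TTATA and TATAA overlap.
Id1, chr3:161671314-161671523, plus strand: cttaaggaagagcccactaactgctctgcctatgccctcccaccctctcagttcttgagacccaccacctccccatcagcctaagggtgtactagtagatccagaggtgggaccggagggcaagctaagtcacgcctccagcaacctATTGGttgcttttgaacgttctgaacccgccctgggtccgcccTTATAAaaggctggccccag
Id2, chr6:47471036-47471245, minus strand: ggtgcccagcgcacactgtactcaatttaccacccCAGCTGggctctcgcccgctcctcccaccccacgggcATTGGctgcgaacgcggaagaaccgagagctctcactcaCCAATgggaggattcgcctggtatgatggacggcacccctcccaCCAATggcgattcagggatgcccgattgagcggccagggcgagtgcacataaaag
Id3, chr5:153656041-153656250, plus strand: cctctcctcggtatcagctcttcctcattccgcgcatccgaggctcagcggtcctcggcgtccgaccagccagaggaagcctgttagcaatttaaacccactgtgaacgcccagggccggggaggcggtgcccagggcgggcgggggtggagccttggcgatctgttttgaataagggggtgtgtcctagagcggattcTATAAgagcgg
Id4, chr17:16598334-16598543, minus strand: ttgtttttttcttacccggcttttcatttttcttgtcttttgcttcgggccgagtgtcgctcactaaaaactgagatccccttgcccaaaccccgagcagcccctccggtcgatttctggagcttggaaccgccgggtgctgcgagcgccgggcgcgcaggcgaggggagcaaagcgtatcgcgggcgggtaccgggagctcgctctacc
CCAAT had 1 match in the Id1 window and 3 in the Id2 window, and in 30.5% of the windows of the same length from 27457 promoters. TATAA or its reverse complement lay in the Id1 and Id3 windows and in 20.3% of all windows. The E box was found once, in Id2, against 59.1% of all windows, so Id1, Id3 and Id4 had no match of these letters. The short Smad site GTCT lay once in Id1 and once in Id4 (78.6% of all windows), outside the capitals. GGCGCC, a GC-rich Smad site, lay in 7.40% of all windows, the partial cyclic AMP element TGACG in 15.2% and the Egr site GCGTGGGCG in 0.39%, and none of these 3 matched any Id window. The windows held 56.7% G and C in Id1, 61.9% in Id2, 61.9% in Id3 and 60.0% in Id4, and the median over all windows was 51.4%. A match is a description of letters and not a measured binding site. Sequence outside the windows was not searched, so a missing match says nothing about sites elsewhere.

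Values are log2 expression. The deposited arrays had not been equalised: the EGF arrays had medians of 6.03 and 6.25 log2, and the conditioned-medium arrays lay higher, at 6.84 and 6.56 log2. Quantile normalized values, in which every array has the same distribution, are given unless a value is called deposited or median-centred. The family was chosen with this comparison in view, so its differences are a description and carry no test. RNA degradation raises the 3′ over the 5′ signal of a transcript. For the actin control this excess was 1.99 and 2.08 log2 in the EGF arrays but 1.54 and 1.37 log2 after conditioned medium. It moved with the condition beside every value that follows, and its part in them was not tested. In pooled RNA of whole cultures, more cells that express a gene and more RNA per cell cannot be told apart.

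All 8 Id probe sets were higher in both conditioned-medium arrays than in both EGF arrays under each of the 3 scalings (quantile normalized, deposited and median-centred). The same held for 18.9% of the 20826 probe sets with 1 symbol. By at least 1 log2 under each scaling and with no overlap, 4 of the 8 were higher, 1 each of Id1, Id2, Id3 and Id4, against 1.47% of those probe sets. The median of the 8 differences was 1.17 log2, and 1.53 log2 as deposited, beside 0.00 and 0.47 log2 for all probe sets with 1 symbol. Because the members were chosen on this comparison, these counts describe the family and support nothing further.

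**Figure D1:**
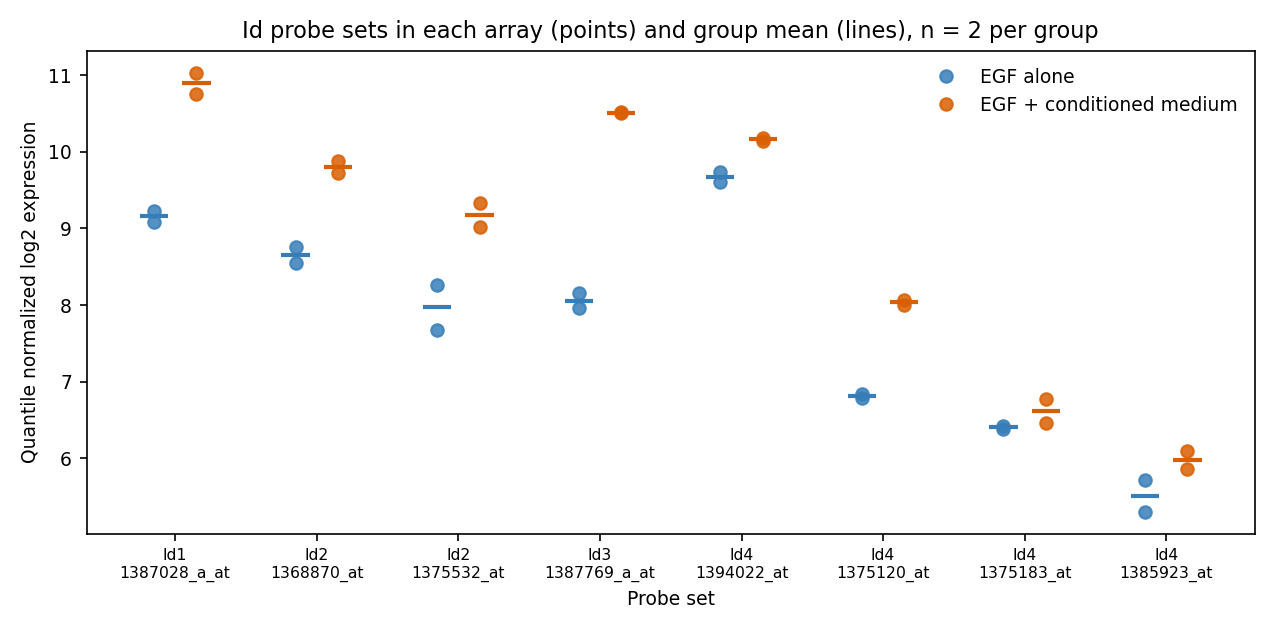
Quantile normalized log2 expression (vertical axis) of the 8 Id probe sets (horizontal axis) in each array, with EGF alone in blue and EGF plus conditioned medium in orange. Points are arrays and lines are means of 2 arrays. The groups do not overlap at any probe set; they are farthest apart for Id3 (8.06 against 10.51 log2) and nearest for Id4 probe set 1375183_at (6.40 against 6.62 log2).

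Id3, an Id protein active in progenitors and in blood vessel growth, showed the largest difference of the family. Its probe set 1387769_a_at read 8.15 and 7.96 log2 without conditioned medium and 10.51 and 10.50 log2 with it. Both conditioned-medium arrays lay far above both EGF arrays, with 2.35 log2 between the nearest 2 arrays and at most 0.19 log2 between replicates. The difference was 2.45 ± 0.09 log2 (limma SE, n = 2 per group), or 5.47-fold, and 2.81 log2 as deposited and 2.24 log2 with median-centred arrays. Within each array, Id3 ranked above 68.9% and 66.7% of all probe sets with EGF alone and above 93.3% and 93.3% with conditioned medium. This rank does not depend on the scaling of the arrays. Only 14 of the 11491 genes tested, Id3 included, had a difference at least as large.

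Id1, which keeps progenitors undifferentiated in several tissues, came next. Its probe set 1387028_a_at read 9.09 and 9.23 log2 without conditioned medium and 11.03 and 10.76 log2 with it. The groups stood 1.53 log2 apart at their nearest arrays, against a largest replicate gap of 0.27 log2. The difference was 1.74 ± 0.10 log2 (limma SE, n = 2 per group), or 3.33-fold, with 2.06 log2 as deposited and 1.49 log2 with median-centred arrays. Its rank within the arrays was 80.2% and 81.8% with EGF alone and 95.9% and 94.7% with conditioned medium.

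Id2, an Id protein of neural and lymphoid progenitors, was measured by 2 probe sets, which gave similar sizes. Probe set 1368870_at read 8.76 and 8.55 log2 without conditioned medium and 9.72 and 9.88 log2 with it, a difference of 1.14 ± 0.10 log2 (limma SE, n = 2 per group). Probe set 1375532_at read 8.27 and 7.67 log2 without conditioned medium and 9.02 and 9.33 log2 with it, a difference of 1.20 ± 0.18 log2 (SE). The second varied more between replicates, by 0.59 log2 in the EGF arrays, and its groups still stood 0.75 log2 apart. The differences of the 2 probe sets lay within the SE of each other. As deposited they were 1.48 and 1.57 log2, and with median-centred arrays 0.92 and 1.00 log2.

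Id4, which in the nervous system is tied to the timing of glial and neuronal differentiation, gave 4 unequal answers. Its brightest probe set, 1394022_at, read 9.60 and 9.73 log2 without conditioned medium and 10.14 and 10.18 log2 with it, a difference of 0.50 ± 0.08 log2 (limma SE, n = 2 per group). Probe set 1375120_at read 6.84 and 6.78 log2 without conditioned medium and 8.01 and 8.06 log2 with it, a difference of 1.22 ± 0.14 log2 (SE). Both separated the groups by more than the replicates of either group differed, but the second did so by 1.17 log2 at the nearest arrays and the first by 0.41 log2. Probe set 1375183_at read 6.39 and 6.42 log2 without conditioned medium and 6.46 and 6.78 log2 with it, a difference of 0.22 ± 0.20 log2 (SE). Probe set 1385923_at read 5.30 and 5.72 log2 without conditioned medium and 5.86 and 6.09 log2 with it, a difference of 0.46 ± 0.24 log2 (SE). In these 2 probe sets the gap between groups at the nearest arrays, 0.04 and 0.14 log2, was smaller than the replicate gaps of up to 0.31 and 0.41 log2, so no difference beyond the replicate spread was measured there. All 4 lay above the limit for dim probe sets, 4.77 log2 in the mean of the 4 deposited values. The lowest of them, 1385923_at, had a mean of 5.71 log2. As deposited its EGF arrays read 4.74 and 5.52 log2, the first of them under that limit. What parts of the Id4 transcript the 4 probe sets read was not analysed here, so none of them can be preferred on that ground.

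Ordered by the difference, the family ran from Id3 through Id1 to Id2 and Id4. Id3 exceeded Id1 by more than the SE of either. The Id4 probe set 1375120_at and both Id2 probe sets, at 1.22, 1.20 and 1.14 log2, lay within the SE of one another. The remaining 3 Id4 probe sets lay between 0.22 and 0.50 log2. The order Id3, Id1, Id2 was the same under all 3 scalings, while the brightest Id4 probe set ranged from 0.25 log2 with median-centred arrays to 0.82 log2 as deposited. Replacing the scaling therefore changed the size for Id4 by a larger factor than for Id3.

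**Figure D2:**
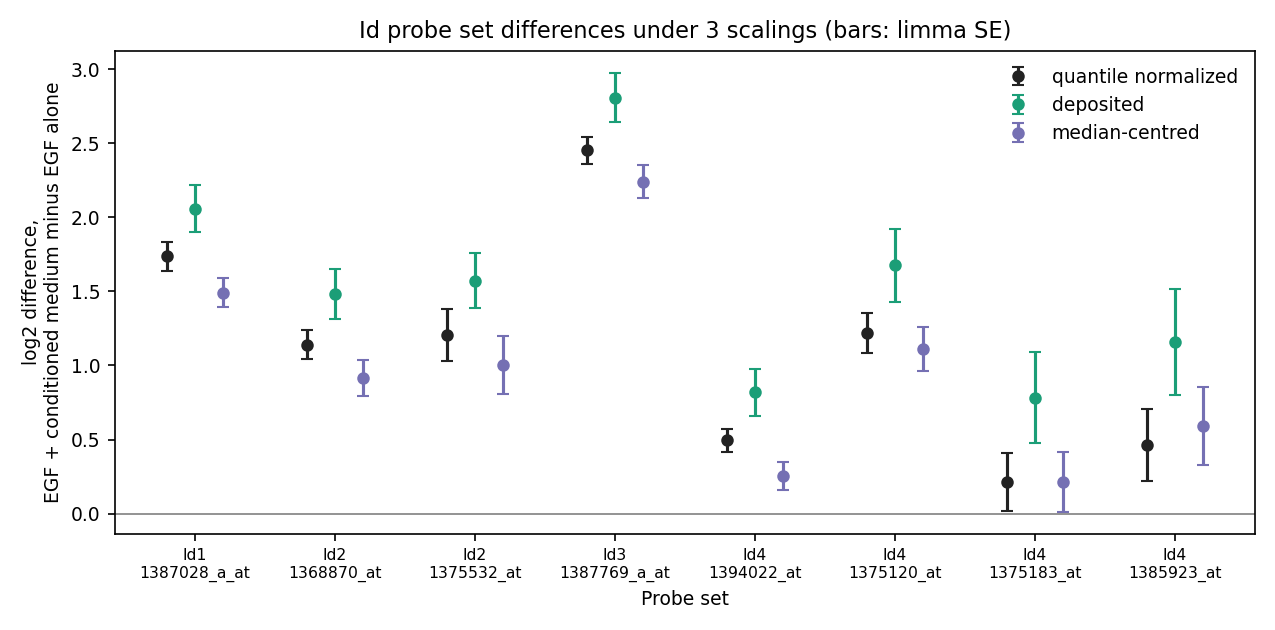
Log2 difference, EGF plus conditioned medium minus EGF alone (vertical axis), of the 8 Id probe sets (horizontal axis) with quantile normalized (black), deposited (green) and median-centred (purple) values; bars are limma SE, n = 2 per group. All differences shown are above 0, from 0.22 log2 for Id4 probe set 1375183_at to 2.81 log2 for Id3 as deposited.

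**Figure D3:**
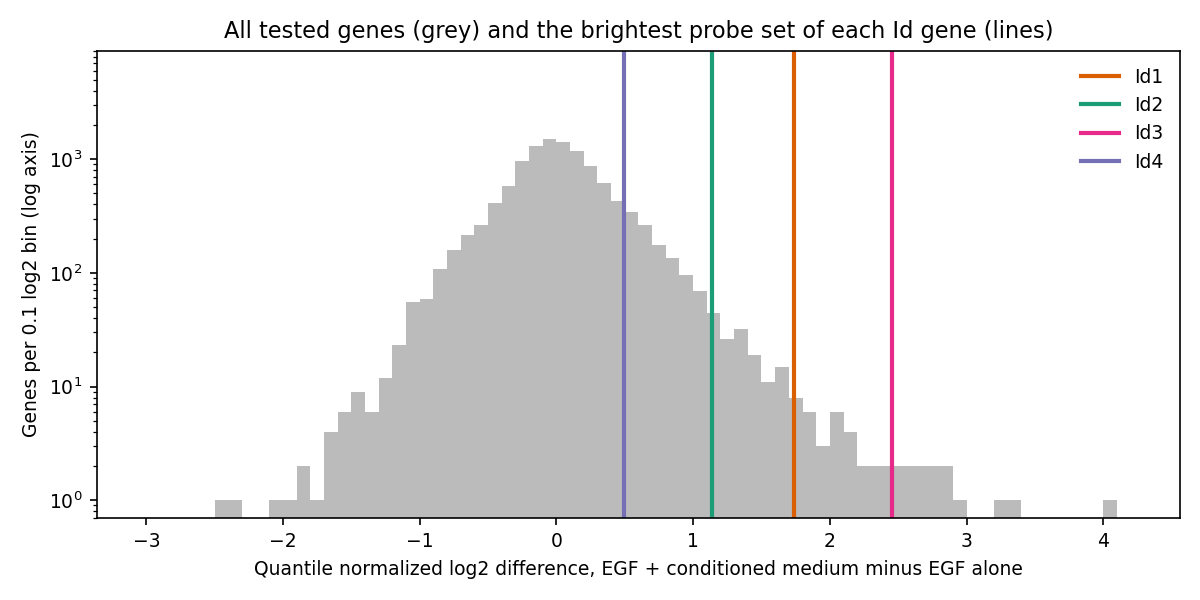
Quantile normalized log2 difference (horizontal axis) of the 11491 genes tested as grey bars per 0.1 log2 (vertical axis, log scale), with vertical lines at the brightest probe set of Id4 (0.50), Id2 (1.14), Id1 (1.74) and Id3 (2.45). Most genes lie near 0, and the Id3 line stands where few genes are found.

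For the genes around the family, every gene with 1 symbol was represented by its brightest probe set, and 11491 genes above the limit for dim probe sets were tested with limma. A gene is said to have risen or fallen where its Benjamini-Hochberg adjusted p was under 0.05 in the same direction under all 3 scalings, which held for 1048 genes higher (9.12%) and 205 lower (1.78%). The lists below were written with earlier results of these data known, and the adjusted p-values are those of limma on quantile normalized values.

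The E proteins are the direct partners of Id proteins. Of the 3, Tcf3 (E2A) rose, from 7.70 and 7.68 log2 with EGF alone to 8.13 and 8.26 log2 with conditioned medium, a difference of 0.50 ± 0.11 log2 (limma SE, adjusted p = 0.0056). Tcf12 (HEB) differed by 0.23 ± 0.07 log2 and Tcf4 (E2-2) by 0.02 ± 0.07 log2, and neither passed under all 3 scalings. The second Tcf4 probe set differed by 0.18 log2 and the second Tcf12 probe set by 0.33 log2. Tcf3 lost its call in each of the 4 fits that left an array out, and when dim genes were kept in the test.

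Tissue-specific bHLH factors are those whose pairing with E proteins Id proteins block. Of 15 listed, 8 were tested, 1 fell and 0 rose, while 1.78% of all tested genes fell and 9.12% rose. Their median difference was -0.34 log2 (0.19 log2 as deposited), beside 0.00 log2 (0.40 log2 as deposited) for all tested genes. Bhlhe22, a factor of amacrine and bipolar interneurons, fell from 11.90 and 11.98 log2 to 11.40 and 10.77 log2, a difference of -0.86 ± 0.15 log2 (limma SE, adjusted p = 0.00146). The 2 conditioned-medium arrays differed by more than the nearest arrays of the groups, and Bhlhe22 did not pass when EGF replicate 1, EGF replicate 2 or conditioned-medium replicate 2 was left out, or with the replicate as a block. The photoreceptor and amacrine factor Neurod1 (-0.44 ± 0.05 log2), the amacrine and horizontal cell factor Ptf1a (-0.56 ± 0.14 log2) and the proneural factor Neurog2 (0.41 ± 0.08 log2) did not pass under all 3 scalings. Of the other listed factors, the proneural factor Atoh7 was not analysed here.

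The bHLH genes listed as repressors, some of which act on the same differentiation programme from another side, rose or did not pass. Of 10 listed, 8 were tested, 4 rose and 0 fell, while 9.12% of all tested genes rose and 1.78% fell. Their median difference was 0.42 log2 (0.75 log2 as deposited), beside 0.00 log2 (0.40 log2 as deposited) for all tested genes. Of the Hes and Hey genes, some of them targets of Notch signalling, Hes1 rose by 0.64 ± 0.12 log2 (limma adjusted p = 0.00188). Hey1 rose by 0.55 ± 0.08 log2 (adjusted p = 3.77e-04). Hey2 differed by 0.29 ± 0.09 log2, Hes5 by 0.16 ± 0.09 log2 (its second probe set by -0.48 log2) and Hes6 by -0.10 ± 0.06 log2. Heyl differed by -0.45 ± 0.18 log2 (its second probe set by -0.31 log2), but by 0.15 and 0.28 log2 as deposited. Hey2, Hes5, Hes6 and Heyl did not pass under all 3 scalings. Both Dec genes, repressors linked to the circadian clock and hypoxia, rose. Bhlhe40 rose by 1.63 ± 0.29 log2, from 4.41 and 4.08 log2 to 5.60 and 6.15 log2, but its EGF values as deposited, 3.85 and 3.89 log2, lay under the dim limit. It was tested only through its level with conditioned medium, so its call carries no weight in the count, also where an array was left out. Bhlhe41 rose by 0.82 ± 0.14 log2, from 6.90 and 6.67 log2 to 7.55 and 7.66 log2. The count of 4 was 3 when EGF replicate 1 was left out, 1 without EGF replicate 2, and 2 and 1 without replicates 1 and 2 of conditioned medium. Hes1 lost its call without either EGF array or conditioned-medium replicate 1, Hey1 and Bhlhe40 without EGF replicate 2 or conditioned-medium replicate 2, and Bhlhe41 without either conditioned-medium array. Hey1 also lost its call with the replicate as a block.

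BMP and TGF-beta signalling was followed through 45 listed genes, of which 34 were tested. Of these 34, 6 rose, 0 fell and 28 did not pass, while 9.12% of all tested genes rose and 1.78% fell. The median difference was 0.08 log2 (0.49 log2 as deposited), beside 0.00 log2 (0.40 log2 as deposited) for all tested genes. Of 8 ligands tested, Bmp2 rose by 0.60 ± 0.12 log2 (limma adjusted p = 0.00364) and its second probe set differed by 0.57 log2. The ligand Tgfb1 rose by 0.96 ± 0.25 log2 (adjusted p = 0.0143), from 4.91 and 4.67 log2 to 5.86 and 5.64 log2. Its EGF values as deposited, 4.31 and 4.46 log2, lay under the dim limit, so Tgfb1 too was tested only through its level with conditioned medium and carries no weight in the count of 6. Bmp7 differed by 0.18 ± 0.15 log2, and Bmp4 was too dim to be tested. Of 8 receptors tested none rose or fell. Bmpr1a, a type I BMP receptor, differed by 0.20 ± 0.11 log2 and the type II receptor Bmpr2 by -0.12 ± 0.11 log2.

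Of the 6 Smads, which carry the signal to the nucleus, Smad3 of the TGF-beta branch rose by 0.59 ± 0.10 log2 (limma adjusted p = 0.00105). The Smads of the BMP branch, Smad1 (-0.06 ± 0.08 log2), Smad5 (0.23 ± 0.07 log2) and Smad9 (0.19 ± 0.34 log2), did not pass under all 3 scalings. Of 10 inhibitors tested 1 rose, the decoy receptor Bambi, from 9.26 and 9.27 log2 to 9.88 and 9.78 log2 (0.57 ± 0.08 log2, adjusted p = 5.23e-04). The inhibitory Smads, which BMP signals induce as feedback, did not pass under all 3 scalings in their brightest probe sets, Smad6 at -0.43 ± 0.16 log2 and Smad7 at -0.11 ± 0.14 log2. The probe sets of Smad6 disagreed: its other one past the dim filter differed by 1.98 log2, and by 2.63 log2 as deposited, from an EGF mean of 3.97 log2 to 6.60 log2. That EGF mean lay under the dim limit, and no direction is given for Smad6. Noggin, Nog, a secreted BMP antagonist, differed by -1.18 ± 0.28 log2 but only by -0.43 log2 as deposited, and it did not pass under all 3 scalings. It read 5.42 and 6.01 log2 without conditioned medium and 4.53 and 4.53 log2 with it. As deposited the groups overlapped, at 4.88 and 5.83 log2 without and 5.15 and 4.71 log2 with conditioned medium.

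Of 5 other target genes of BMP or TGF-beta signals, 2 were tested and both rose. Ccn2, a matricellular protein, rose by 1.80 ± 0.09 log2 (limma adjusted p = 4.89e-07), from 8.41 and 8.51 log2 to 10.20 and 10.33 log2. Atoh8, a bHLH factor, rose by 0.88 ± 0.15 log2 (adjusted p = 0.00114), from 6.45 and 6.34 log2 to 7.20 and 7.34 log2. Ccn2 passed in every alternative tried. The homeobox genes Msx1 and Msx2 were too dim to be tested, with brightest probe sets that differed by 0.89 and 0.89 log2 from EGF means of 3.64 and 3.82 log2 as deposited. The count of 6 was 4 when EGF replicate 1 was left out, 3 without EGF replicate 2, and 2 without either conditioned-medium array. Bmp2 and Tgfb1 lost their calls in each of these 4 fits, Smad3 without either conditioned-medium array, Bambi without EGF replicate 2 or conditioned-medium replicate 1, and Atoh8 without conditioned-medium replicate 2.

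CDK inhibitors halt the cell cycle, and E proteins can activate several of them. Of 6 listed, 5 were tested, 1 rose and 0 fell, beside 9.12% and 1.78% of all tested genes. Cdkn1c (p57) rose from 10.94 and 10.98 log2 to 12.09 and 11.89 log2, a difference of 1.03 ± 0.08 log2 (limma SE, adjusted p = 7.25e-06). Cdkn1a (p21) differed by 0.21 ± 0.09 log2, Cdkn1b (p27) by 0.25 ± 0.06 log2, Cdkn2c by 0.43 ± 0.09 log2 and Cdkn2b by 0.36 ± 0.27 log2. None of them passed under all 3 scalings, and Cdkn2b lay under the dim limit in both EGF arrays as deposited. Cdkn2a was too dim to be tested.

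**Figure D4:**
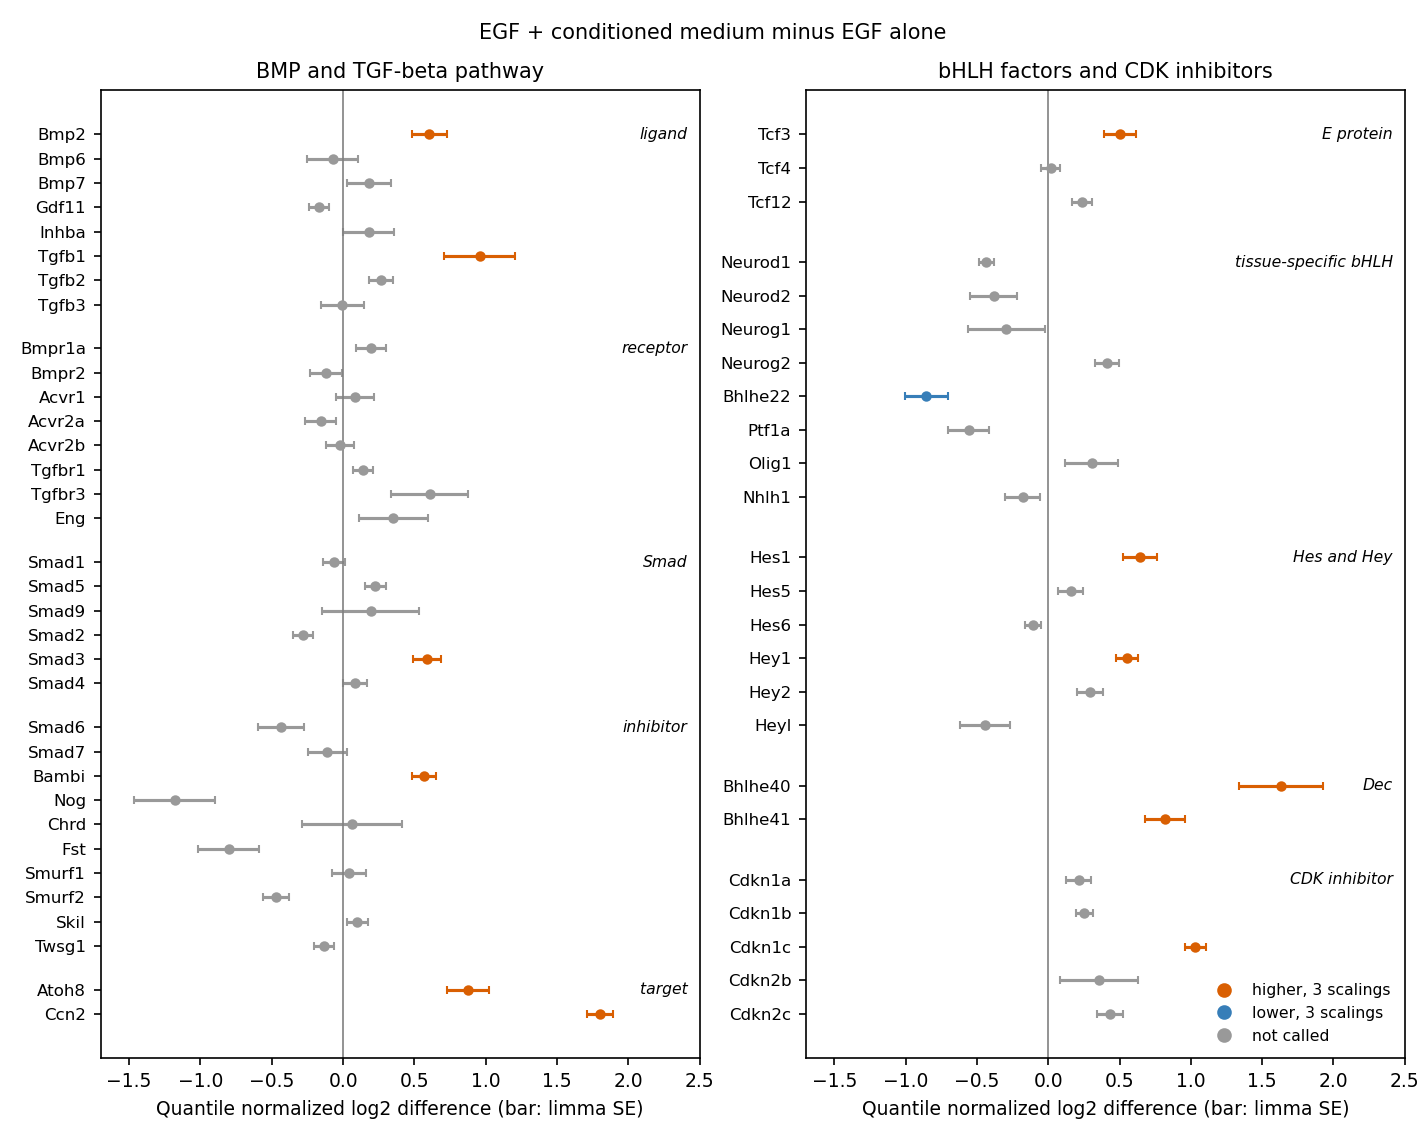
Quantile normalized log2 difference, EGF plus conditioned medium minus EGF alone (horizontal axis), of the 58 tested genes of the BMP and TGF-beta pathway (left) and of bHLH factors and CDK inhibitors (right), grouped by role; bars are limma SE, n = 2 per group. Orange genes were called higher under all 3 scalings, blue genes lower and grey genes were not called. The receptors are all grey, and Ccn2 (1.80 log2) and Bhlhe40 (1.63 log2) lie farthest to the right. Bhlhe40 and Tgfb1 lay under the dim limit in the EGF arrays as deposited, so their calls carry no weight.

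The genes whose profile over the 4 arrays was most like that of each Id gene were sought, with predicted symbols (LOC or RGD) passed over. They were found by the Euclidean distance between quantile normalized profiles, each centred on its own mean. This measure follows the size of the difference between groups closely, and with 4 arrays it is a description only. For Id3 they were the adaptor subunit Ap1s3 (distance 0.08 log2, difference 2.40 log2), cardiac troponin T, Tnnt2 (0.16 and 2.51 log2), and the sialoglycoprotein Spn (0.17 and 2.61 log2). For Id1 they were the zinc finger factor Egr2 (distance 0.16 log2, difference 1.74 log2), galectin 3, Lgals3 (0.16 and 1.70 log2), and glycogen phosphorylase, Pygl (0.17 and 1.65 log2). For Id2 they were the metalloprotease Adamts1 (distance 0.07 log2, difference 1.09 log2), Spink8 (0.10 and 1.10 log2) and Vsig10 (0.11 and 1.03 log2). For the brightest Id4 probe set they were Msmp, Gmfg and Gpx8, at distances of 0.02 log2 each and differences of 0.50, 0.50 and 0.49 log2. Tnnt2 and Spn lay under the dim limit in the EGF arrays, at 3.97 and 4.18 log2 and at 3.45 and 3.53 log2 as deposited, which Id3 did not.

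Markers of the cell types these cultures could hold were read in the same arrays. Across all tested genes 9.12% rose and 1.78% fell. Retinal progenitor factors were present, and of 6 tested 1 rose (Six6, 0.68 ± 0.09 log2) and 0 fell, with list means of 10.83 to 10.94 log2 with EGF alone and 11.03 to 11.05 log2 with conditioned medium. Of 7 markers of Muller and radial glia, cells that express Id genes in many settings, 3 rose (Clu, Vim and Slc1a3) and 0 fell, with list means of 10.63 to 10.71 log2 and 10.98 to 11.00 log2. Of the glial markers that did not pass, Rlbp1 differed by -0.70 ± 0.08 log2 (limma adjusted p = 9.6e-05, but 0.0638 as deposited), Aqp4 by -0.57 ± 0.21 log2 and Fabp7 by -0.29 ± 0.06 log2. With quantile normalized values the list thus had no common direction. As deposited Rlbp1 differed by -0.38 log2, but Aqp4 by 0.09 log2 and Fabp7 by 0.02 log2. Of 5 photoreceptor markers 3 fell (Crx, Opn1sw and Pdc), with list means of 9.74 to 9.90 log2 and 8.33 to 8.35 log2. Of 10 mesenchymal markers on the array 7 were tested and 6 rose, with list means of 5.02 to 5.10 log2 and 6.06 to 6.15 log2. Tagln and Twist1, of these 6, had EGF means under the dim limit as deposited and were tested only through the conditioned-medium arrays. Lum and Dcn were under the dim limit in every array. Of 7 microglia markers 5 were tested and 3 rose (Aif1, Csf1r and Ptprc), with list means of 4.74 to 4.88 log2 and 5.56 to 5.57 log2. Aif1 and Ptprc lay under the dim limit in both EGF arrays as deposited and were likewise tested only through the conditioned-medium arrays, so the microglia count rests on Csf1r alone once they are set aside. Of 8 endothelial markers 4 were tested and 1 rose (Esam), with list means of 5.25 to 5.46 log2 and 5.52 to 5.59 log2. Pecam1, Tek, Tie1 and Emcn were under the dim limit in every array. Kdr was far brighter than these list means: its EGF arrays read 11.9 and 12.0 log2, its conditioned-medium arrays 12.4 and 12.4 log2. Kdr differed by 0.41 ± 0.06 log2 (limma adjusted p = 5.41e-04). With median-centred arrays its difference was 0.14 log2 (limma adjusted p = 0.237), so Kdr did not pass under all 3 scalings. Of the 3 astrocyte and 4 lens markers tested none rose or fell, and of 2 pigment epithelium markers tested Mitf rose. The part of these cell types in the Id differences was not tested.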

How the data were processed

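Per the labels, total RNA of 4 rat retinal neurosphere cultures was hybridised to an Affymetrix rat expression array read near the 3′ ends of transcripts. The authors summarised probes by RMA in GenePattern and deposited log2 values, per the series description. Its version and normalization setting are not given in the sources used here. Since the deposited arrays were not equalised, they were quantile normalized, with the deposited and median-centred values as alternatives. Probe sets were named through the platform annotation, in which 436 probe sets had several symbols and 9831 had none, and those were not used. All 4 Id genes matched the RefSeq table of GRCr8 by gene identifier.

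Conditioned medium minus EGF alone was fitted in R 4.3.3 by limma 3.58.1 (eBayes with trend, two-sided, Benjamini-Hochberg), without a block, on 11491 of 14217 genes. The lowest 30% of probe sets by mean over all 4 arrays were left out. That filter lets a dim gene pass more easily if it is high in 1 condition. With deposited values the prior of limma outweighed the spread of single genes entirely, so p-values there rest on the spread pooled over genes. The procedure was also run on simulated data, and no error rate from that run is given here. The members and lists were chosen with earlier results of these data known. Named genes were all Id probe sets, the E proteins, up to 4 called members per role and the 3 nearest profiles per Id gene, predicted symbols passed over. Other genes were named after their values were seen, for their role. Alternatives covered scaling, filter, probe set choice, block, fold alone and each array left out. The number of arrays limits the precision.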

Additional observations from a re-analysis of the deposited data

How the results depend on the processing

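Among all tested genes, 1048 higher and 205 lower calls became 4643 higher with deposited values alone, 3704 lower with median-centred arrays alone, and 1890 higher and 1672 lower with quantile normalized arrays alone. By fold alone (at least 1 log2 and no overlap) they were 197 and 18. Leaving out 1 array gave 506 to 850 higher and 43 to 103 lower calls. With the replicate as a block 28 were lower. Same-numbered arrays deviated together with a correlation of -0.03 (-0.12 as deposited) over 2 pairs, so the numbers were not taken to pair the arrays. Calls in 1 scaling are a wider set by construction, and for the other changes the cause was not tested.

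For E proteins and tissue-specific bHLH factors together, 1 gene was higher and 1 lower. These became 4 higher (deposited), 4 lower (median-centred), and 3 higher and 3 lower (quantile normalized alone). There were 0 higher with no filter, 0 lower with the replicate block, and 0 and 0 by fold alone. Neither call held in every fit that left 1 array out. For bHLH repressors, the 4 higher became 1 by fold alone, and 1 was lower with median-centred arrays alone. The gene left by fold alone was Bhlhe40, whose call carries no weight. For the BMP and TGF-beta pathway, the 6 higher became 17 (deposited), 1 by fold alone and 2 to 4 with 1 array left out, and the 0 lower became 9 (median-centred) and 4 (quantile normalized alone). For CDK inhibitors, the 1 higher became 5 (deposited), 3 (quantile normalized alone) and 0 by fold alone.

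All 8 Id differences kept their sign in every alternative. Deposited values gave 2.06 log2 for Id1, 1.48 and 1.57 for Id2, 2.81 for Id3 and 0.82, 1.68, 0.78 and 1.16 for Id4 probe sets 1394022_at, 1375120_at, 1375183_at and 1385923_at. Median-centred arrays gave 1.49 for Id1, 0.92 for Id2 probe set 1368870_at, 2.24 for Id3 and 0.25 and 1.11 for Id4 probe sets 1394022_at and 1375120_at. With 1 array left out the ranges were 1.61 to 1.88 for Id1, 1.04 to 1.23 and 0.90 to 1.48 for Id2, 2.35 to 2.53 for Id3, and 0.43 to 0.56, 1.18 to 1.28, 0.058 to 0.39 and 0.24 to 0.66 for Id4. The lone array of a group was then assumed to vary like the other group's. The replicate block leaves the Id differences as they are by construction.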
